A study of Rattus norvegicus with 8 samples.

Results

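Annexins and S100 proteins are small families of calcium-responsive proteins many of which work at the inner face of the plasma membrane, and 7 genes of these families were followed across slow and fast cells of the C6 rat glioma line: Anxa1, Anxa2, Anxa3, Anxa5, S100a4, S100a6 and S100a10. All probe sets annotated to these genes were taken, which gave 9 probe sets for 6 genes out of 7018 probe sets with a single symbol for 4737 genes. S100a6, also called calcyclin, had no probe set in the annotation used here. The data were 8 oligonucleotide arrays of total RNA, 2 for each of C6SPGFP fast, C6SPGFP slow, C6 fast and C6 slow cells, and the series is about cell migration. All 4 groups are cells of the C6 line, which carries glial features. The labels name no treatment, and they explain neither C6SPGFP nor how fast and slow cells were separated.

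An annexin binds negatively charged phospholipids when calcium rises, through a core of repeated domains, and the short stretch before that core gives each annexin its partners. An S100 protein is a dimer of EF-hand subunits that opens a binding surface when it takes up calcium. S100A10 is the exception in that it no longer binds calcium, and it is held in a complex with annexin A2 that can bind plasminogen at the cell surface. Many of these genes are strongly expressed in motile, adherent and tumour cells, and S100A4 is known in mouse and human tumours for its link to metastasis.

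Signals were quantile normalised between the arrays, because C6SPGFP fast replicate 1 had been deposited at a scale of its own, with a trimmed mean of 500.5 against 100.1 to 105.8 on the other 7 arrays. On the normalised scale the arrays had a median of 38.0 to 38.1 and a maximum of 4964. Changes are given as log2 of the normalised signal plus 8, and the test ran over the 6684 probe sets whose signal averaged 8 or more. With 2 arrays in a group, array number sets how precise each value can be. Nothing in the labels ties the replicates to different cultures, and a p-value here reflects the array-to-array spread alone, which may be technical. Of 6 glial markers 5 had a probe set, and their summed signal was 6361 to 6468 in C6SPGFP fast, 6602 to 6711 in C6SPGFP slow, 2951 to 3162 in C6 fast and 4537 to 4826 in C6 slow cells. Gfap had no probe set in the annotation used here, and the glutamate transporter gene Slc1a3 lay between 2.91 and 19.3 on the 8 arrays. Of 10 macrophage and microglia markers 7 had a probe set, with summed signals of 297 to 333 in C6SPGFP fast, 373 to 390 in C6SPGFP slow, 181 to 212 in C6 fast and 237 to 268 in C6 slow cells, of which Cd14 gave 90.55 to 292 and Ptprc 28.45 to 48.3 over the 8 arrays, while Itgam stayed at or below 4.65. Of 8 fibroblast markers 7 had a probe set, with sums of 1297 to 1305 in C6SPGFP fast, 1401 to 1409 in C6SPGFP slow, 532 to 580 in C6 fast and 636 to 821 in C6 slow cells. Pdgfra, which glial precursors also express, gave most of that sum in C6SPGFP cells, at 919 to 1158 there and 326 to 542 in C6 cells. The sums of 4 endothelial markers lay between 74.25 and 129 on all arrays. Those of 5 neuron markers were 134 to 203 in C6SPGFP fast, 224 to 273 in C6SPGFP slow, 143 to 174 in C6 fast and 138 to 171 in C6 slow cells. The glial, macrophage and fibroblast sums were thus higher in all C6SPGFP arrays than in all C6 arrays, but not every marker followed its sum. The glial marker Nes overlapped, at 717 to 1068 in C6SPGFP and 190 to 936 in C6 arrays, as did Slc1a3. Cnp, S100b and Vim lay higher in all C6SPGFP arrays, and Vim, at 2594 to 3831, was the largest part of the glial sum. Cd14, the largest part of the macrophage sum, read 206 to 292 in C6SPGFP and 90.55 to 188 in C6 arrays. Ptprc overlapped, at 42.3 to 48.3 and 28.45 to 47.8. The fibroblast marker Dcn read 3.31 to 4.17 in C6SPGFP and 3.2 to 28.0 in C6 arrays. Col1a1, Col1a2, Col3a1, Lum and Thy1 overlapped too, and Pdgfra alone of the fibroblast markers lay higher in all C6SPGFP arrays. The part of these markers in the results was not tested. In bulk RNA, fewer cells that express a gene and less RNA per cell cannot be told apart.

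Of the 7 genes, 6 matched an entry by symbol in the RefSeq promoter windows of assembly GRCr8, each 250 bases before to 50 after the annotated start. The windows of the 4 genes that have both an entry and a tested probe set are shown, so that the start regions behind the measured transcripts can be compared. Capitals mark 3 motifs searched on both strands. They are TATAAA, where general transcription machinery can bind, GGGCGG, which Sp1 family factors can bind, and TGACTCA, which AP-1 factors can bind.
Anxa1, GRCr8 chr1:227303683-227303982, minus strand: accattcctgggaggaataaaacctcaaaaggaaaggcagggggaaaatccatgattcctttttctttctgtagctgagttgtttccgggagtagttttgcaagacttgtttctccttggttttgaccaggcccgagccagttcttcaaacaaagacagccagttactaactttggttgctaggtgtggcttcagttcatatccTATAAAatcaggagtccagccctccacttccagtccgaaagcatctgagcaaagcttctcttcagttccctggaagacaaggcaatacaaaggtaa
Anxa2, GRCr8 chr8:78986002-78986301, plus strand: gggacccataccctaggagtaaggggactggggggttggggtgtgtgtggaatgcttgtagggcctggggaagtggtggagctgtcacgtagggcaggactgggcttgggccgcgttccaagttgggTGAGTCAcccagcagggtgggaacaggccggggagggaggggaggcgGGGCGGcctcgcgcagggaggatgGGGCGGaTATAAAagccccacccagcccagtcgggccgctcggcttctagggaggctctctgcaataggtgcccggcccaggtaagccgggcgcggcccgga
Anxa5, GRCr8 chr2:121272647-121272946, minus strand: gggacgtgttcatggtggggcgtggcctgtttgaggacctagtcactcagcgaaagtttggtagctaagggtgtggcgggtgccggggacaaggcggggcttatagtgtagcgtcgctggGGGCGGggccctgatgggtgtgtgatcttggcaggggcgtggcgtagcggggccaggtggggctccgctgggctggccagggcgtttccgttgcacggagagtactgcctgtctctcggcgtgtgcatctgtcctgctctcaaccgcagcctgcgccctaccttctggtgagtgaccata
S100a4, GRCr8 chr2:178388279-178388578, plus strand: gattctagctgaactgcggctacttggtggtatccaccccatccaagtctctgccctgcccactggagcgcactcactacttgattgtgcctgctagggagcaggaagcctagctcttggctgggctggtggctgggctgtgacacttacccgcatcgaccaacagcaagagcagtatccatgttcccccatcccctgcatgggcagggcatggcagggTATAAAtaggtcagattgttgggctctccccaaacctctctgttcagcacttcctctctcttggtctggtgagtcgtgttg
The windows of Anxa1, Anxa2 and S100a4 each held a TATAAA, which began 46, 45 and 31 bases before the annotated start. Among all 33469 windows of this length 14.2% held these letters. Anxa2 also held 2 copies of GGGCGG and 1 of TGACTCA, which lies on the reverse strand and so reads TGAGTCA in the printed line, none of them overlapping another match, and its window had 68% G and C against a median of 51.7% over all windows. GGGCGG was found in 33.1% and TGACTCA in 4.63% of all windows. Anxa5 held a single GGGCGG. A match of letters is a description and shows no binding.

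The plasma membrane annexins Anxa1, Anxa2 and Anxa5 and the S100 genes S100a4 and S100a10 were measured with clear signals on every array. Their 7 probe sets had signals between 686 and 3914 on single arrays, and the highest array exceeded the lowest by 1.24-fold for S100a4 to 1.82-fold for the AF051895_at probe set of Anxa5. None of the 7 probe sets passed the test between fast and slow cells of either set. The span between the highest and the lowest of the 4 group means lay between 0.14 and 0.42 on the log2 scale for these probe sets, against a median span of 0.56 over all 6684 tested, of which 19.6% spanned at least 1. Most of the 6684 are far dimmer than these, and their spans were not matched for signal. Since no member spanned 1, the minimum set for this purpose, no other genes were sought that share a member's pattern. Anxa3 was dim on both of its probe sets and was not tested.

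**Figure D1:**
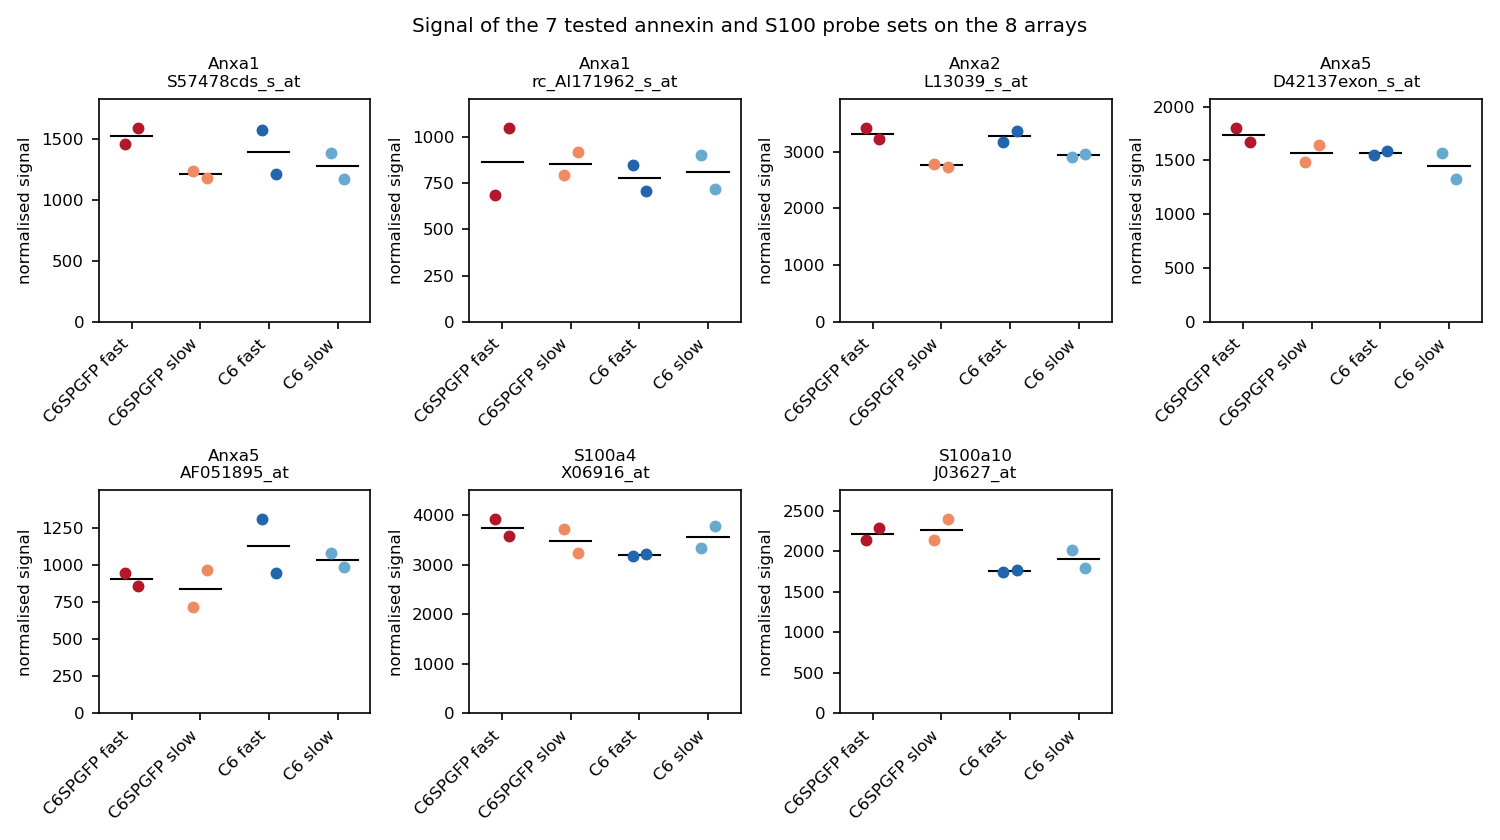
Quantile normalised signal (linear axis from 0) of the 7 tested probe sets of Anxa1, Anxa2, Anxa5, S100a4 and S100a10 on each array, by group; points are arrays and bars are group means of 2. Every panel stays within a narrow band, with a highest over lowest array of 1.24 for S100a4 to 1.82 for Anxa5 AF051895_at, and the Anxa2 arrays of fast cells lie above those of slow cells in both sets.

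Anxa2, the annexin that holds S100A10 at the membrane and takes part in actin attachment and exocytosis, gave signals of 3416 and 3219 in C6SPGFP fast cells and 2790 and 2723 in C6SPGFP slow cells. In the C6 set its signals were 3175 and 3357 in fast cells and 2911 and 2956 in slow cells. Its fast arrays thus lay above its slow arrays in both sets with no overlap, which held for 5.61% of all tested probe sets. The log2 change from slow to fast was 0.27 ± 0.08 (SE) in C6SPGFP, with a 95% interval of 0.08 to 0.46, unadjusted p = 0.0116 and adjusted p = 0.27. In C6 it was 0.15 ± 0.08, with an interval of -0.04 to 0.34 and adjusted p = 0.373. The intervals leave room for a fast cell level up to 1.37-fold higher in C6SPGFP and 1.27-fold higher in C6. These bounds are for quantile normalised signals, and standard errors were wider under the trimmed mean scaling described below. On the mean of both sets, where 0 of 7 member probe sets and 5.03% of all passed, a comparison added after the values were seen, the change was 0.21 ± 0.06, or 1.16-fold, higher in fast cells on 4 of 4 arrays, and it missed the threshold as well (unadjusted p = 0.00651, adjusted p = 0.0926). Its order from high to low was C6SPGFP fast, C6 fast, C6 slow and C6SPGFP slow, with group means of 3317 ± 140, 3266 ± 129, 2933 ± 31.9 and 2756 ± 47.2 (SD, n = 2). Only the C6SPGFP fast and C6 fast groups overlapped as neighbours in that order. The probe set name L13039_s_at marks a design that can match more than 1 sequence, and the rat annotation table lists 8 Anxa2 pseudogenes, so its signal may include near-identical copies. The same ending is carried by the Anxa1 probe sets, by D42137exon_s_at of Anxa5 and by several probe sets of other genes named below. For S100a10 the table lists 1 pseudogene and for Anxa7, named below, 4.

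Anxa1, which inhibits phospholipase A2 and is a ligand of formyl peptide receptors, was covered by 2 probe sets. Its probe set S57478cds_s_at gave 1457 and 1590 in C6SPGFP fast cells and 1235 and 1183 in C6SPGFP slow cells. In the C6 set it gave 1575 and 1213 in fast cells and 1380.4 and 1172 in slow cells. The arrays separated in C6SPGFP and overlapped in C6. The log2 changes were 0.33 ± 0.15 in C6SPGFP (95% interval -0.01 to 0.67, adjusted p = 0.53) and 0.12 ± 0.15 in C6 (-0.22 to 0.46, adjusted p = 0.746). Its other probe set, rc_AI171962_s_at, gave 686 and 1050.0 in C6SPGFP fast cells, 793 and 918 in C6SPGFP slow cells, 849.9 and 709 in C6 fast cells and 903 and 721 in C6 slow cells. There the C6SPGFP fast arrays enclosed both slow ones, and the changes were -0.01 ± 0.22 in C6SPGFP and -0.06 ± 0.22 in C6 (adjusted p = 0.998 and 0.934). The 2 probe sets thus disagreed on C6SPGFP fast against slow cells. The order of group means on the first probe set was C6SPGFP fast, C6 fast, C6 slow and C6SPGFP slow, and each neighbour overlapped the next.

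Anxa5, which binds phosphatidylserine and is widely used as a probe of dying cells, was also covered by 2 probe sets. D42137exon_s_at gave 1802 and 1674 in C6SPGFP fast cells, 1490.1 and 1644 in C6SPGFP slow cells, 1549 and 1590 in C6 fast cells and 1565 and 1328 in C6 slow cells. AF051895_at gave 945 and 859 in C6SPGFP fast cells, 717 and 962 in C6SPGFP slow cells, 1304 and 945 in C6 fast cells and 1077 and 983 in C6 slow cells. Both probe sets gave small positive changes in fast cells with wide intervals. In C6SPGFP the log2 changes were 0.15 ± 0.12 and 0.12 ± 0.19 (adjusted p = 0.747 and 0.901). In C6 they were 0.12 ± 0.12 and 0.11 ± 0.19 (adjusted p = 0.661 and 0.838). The 2 probe sets ordered the groups differently: the first was highest in C6SPGFP fast cells and lowest in C6 slow cells, and the second was highest in C6 fast cells and lowest in C6SPGFP slow cells. On the first, only C6SPGFP fast and C6 fast were neighbours without overlap. On the second, only C6 slow and C6SPGFP fast were.

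S100a4, a calcium-binding partner of nonmuscle myosin, gave 3914 and 3573 in C6SPGFP fast cells and 3715 and 3247 in C6SPGFP slow cells. In the C6 set it gave 3167 and 3211 in fast cells and 3348 and 3787 in slow cells. The C6 fast arrays were the lowest of the 8, below both C6 slow arrays, while the C6SPGFP arrays overlapped. The log2 change was 0.11 ± 0.10 in C6SPGFP (95% interval -0.13 to 0.34, adjusted p = 0.813) and -0.16 ± 0.10 in C6 (-0.39 to 0.08, adjusted p = 0.476). The test of the difference between these changes did not pass either, at 0.27 ± 0.15 (C6SPGFP minus C6, adjusted p = 0.461). The order was C6SPGFP fast, C6 slow, C6SPGFP slow and C6 fast, and only the last step had no overlap.

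S100a10, the S100 partner of annexin A2, gave 2133 and 2283 in C6SPGFP fast cells, 2138 and 2390.2 in C6SPGFP slow cells, 1743 and 1764 in C6 fast cells and 2013.5 and 1797 in C6 slow cells. The C6 fast arrays lay just below the C6 slow arrays, and fast and slow overlapped in C6SPGFP. The log2 changes were -0.03 ± 0.11 in C6SPGFP (95% interval -0.28 to 0.21, adjusted p = 0.957) and -0.12 ± 0.11 in C6 (-0.359 to 0.125, adjusted p = 0.634). For both S100 genes the interval left no room in either set for a fast cell level above 1.27-fold or below 0.76-fold that of slow cells. That bound is for quantile normalised signals. Under the trimmed mean scaling described below, standard errors were wider. S100a4 stood at -0.12 ± 0.13 in C6 and 0.001 ± 0.13 in C6SPGFP, and S100a10 at -0.15 ± 0.15 and -0.08 ± 0.15. The fast minus slow values of S100a10 and Anxa2, whose proteins share a complex, stood at -0.03 and 0.27 in C6SPGFP and at -0.12 and 0.15 in C6. The difference between the genes was not tested.

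Anxa3, an annexin found in neutrophil granules and in microglia, was measured by 2 probe sets with mean signals below 8. AA850219_at read 2.26 and 2.36 in C6SPGFP fast cells, 2.17 and 2.66 in C6SPGFP slow cells, 16.1 and 3.35 in C6 fast cells and 2.96 and 5.11 in C6 slow cells. rc_AI639072_at ran from 1.37 in a C6 fast array to 12.6 in a C6SPGFP slow array. Replicates of some groups differed several-fold on these probe sets. C6 fast replicate 1 read 16.1 on AA850219_at and 8.29 on rc_AI639072_at, against 3.35 and 1.37 on C6 fast replicate 2. The probe set rc_AI639072_at also read 11.2 on C6 slow replicate 2 and 12.6 on C6SPGFP slow replicate 2. Without detection calls, which are not used here, such dim readings cannot be separated from background.

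Counted together, 0 of 7 tested probe sets passed in C6 fast against C6 slow cells, where 6.66% of all tested probe sets did (limma, 5% adjusted). Their smallest unadjusted p was 0.0981. In C6SPGFP fast against slow cells it was again 0 of 7, against 1.39% of all, with 1 unadjusted p below 0.05, that of Anxa2. On the difference between the changes it was 0 of 7, against 3.82% of all, and the smallest unadjusted p was 0.105. Arrays of fast and slow C6 cells did not overlap for Anxa2, higher in fast cells as were 24.3% of all tested probe sets, and for S100a4 and S100a10, lower in fast cells as were 20.8% of all. In C6SPGFP they did not overlap for 3 of 7 probe sets, Anxa1 S57478cds_s_at, Anxa2 and Anxa5 D42137exon_s_at, all higher in fast cells, as were 20.9% of all, while 0 of 7 were lower, as were 23.2% of all. With 1 probe set per gene, the median size of the 5 genes' changes regardless of sign was 0.12 in C6 and 0.15 in C6SPGFP, against 0.25 and 0.20 over all tested probe sets. Most of those are far dimmer, and probe sets of like signal were not compared. A p above the threshold does not show equal levels. Over the 7 probe sets the 95% intervals reached from -0.55 to 0.54 in C6 and from -0.50 to 0.67 in C6SPGFP, so changes beyond 1.46-fold and 1.59-fold lay outside all of them. These intervals are for quantile normalised signals.

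**Figure D2:**
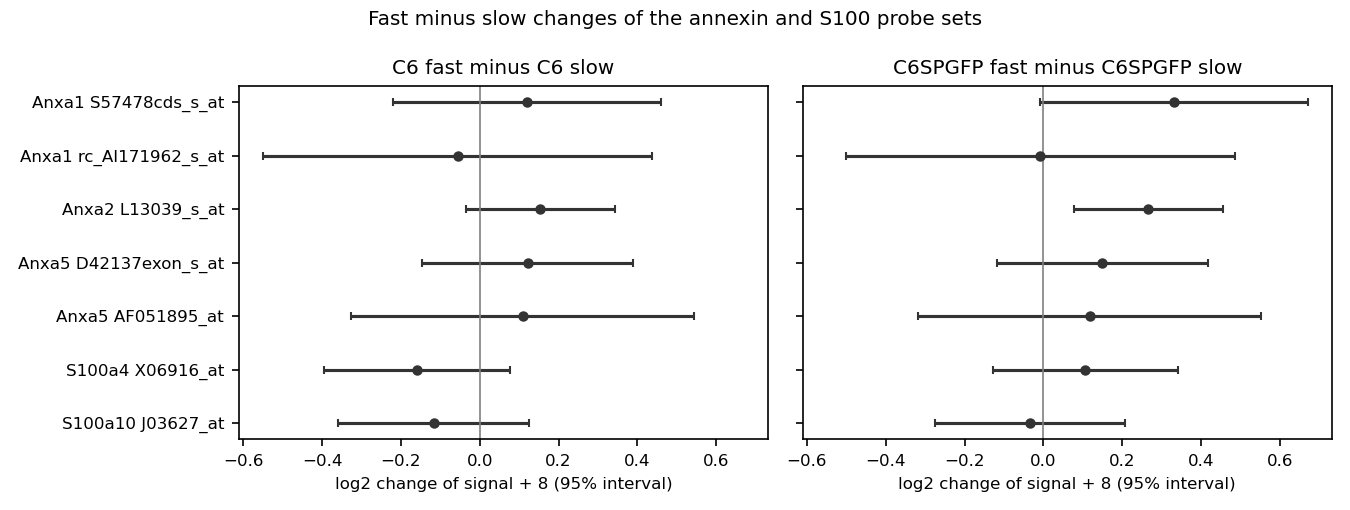
Log2 change from slow to fast cells of each tested annexin and S100 probe set, in C6 (left) and C6SPGFP (right); points are limma estimates and bars 95% intervals, not adjusted for the number of probe sets. All intervals include 0 except that of Anxa2 in C6SPGFP, 0.08 to 0.46.

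**Figure D3:**
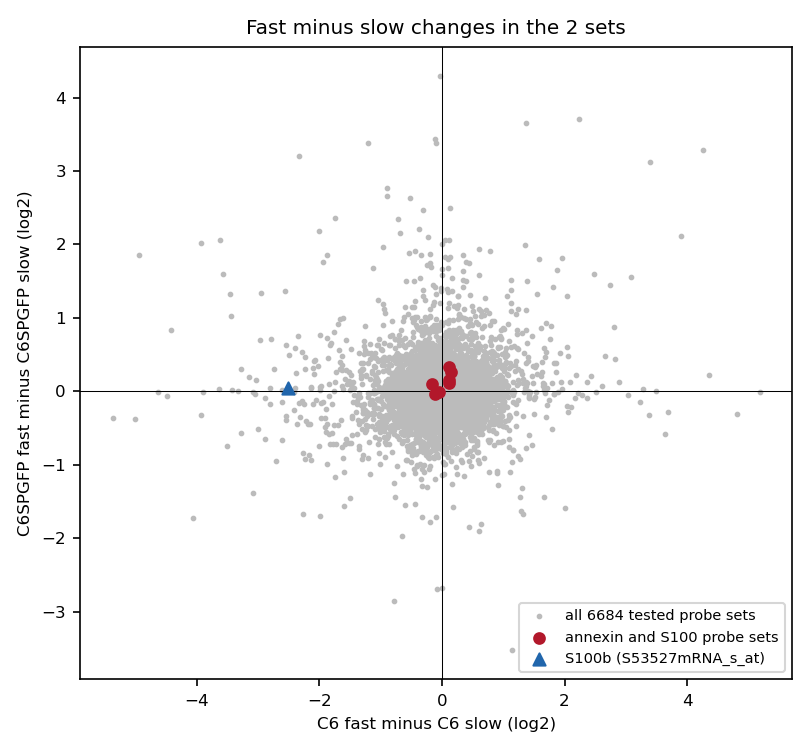
Log2 change from slow to fast cells in C6 (x axis) and C6SPGFP (y axis) for all 6684 tested probe sets (grey), the 7 annexin and S100 probe sets (red circles) and S100b (blue triangle). The red circles lie between -0.16 and 0.15 in C6 and between -0.03 and 0.33 in C6SPGFP, while S100b on S53527mRNA_s_at stands at -2.50 and 0.04.

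Between the sets, C6SPGFP and C6 cells were compared separately among fast and among slow cells. No member passed in either comparison: 0 of 7 in fast cells, against 15.6% of all tested probe sets, and 0 of 7 in slow cells, against 6.34% of all. In fast cells the arrays did not overlap for S100a4, S100a10 and Anxa5 D42137exon_s_at, higher in C6SPGFP as were 26.6% of all, and for 0 of 7 that were lower, as were 29% of all. In slow cells S100a10 was higher without overlap, as were 26.7% of all, and Anxa2 and Anxa5 AF051895_at were lower, as were 24.7% of all. An unadjusted p below 0.05 was reached by S100a10 in both and by no other member. S100a10 had a log2 change of 0.33 ± 0.11 in fast cells (95% interval 0.09 to 0.57, adjusted p = 0.0724) and of 0.25 ± 0.11 in slow cells (0.01 to 0.49, adjusted p = 0.228). All 4 of its C6SPGFP arrays lay above all 4 of its C6 arrays, as they did for 9.34% of all tested probe sets. On the mean of fast and slow cells, a comparison added after the values were seen, S100a10 was 0.29 ± 0.075 higher in C6SPGFP, or 1.22-fold, and passed (adjusted p = 0.0277). It was the single member of 7 probe sets that passed there, against 19.9% of all tested. That call was lost when any of 6 single arrays was dropped, of 8 tried, with changes of 0.25 to 0.33. It held without C6 slow replicate 1 and without C6SPGFP slow replicate 1. It was also lost without the trend in the moderation (adjusted p = 0.137) and under the other scaling of the arrays.

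Between the sets, the values of these genes depended on the scaling. When every array was set to the same 2% trimmed mean in place of quantile normalization, the 99th percentile of the signal lay at 2204 and 2414 in C6SPGFP fast, 2320 and 2483 in C6SPGFP slow, 3160 and 3354 in C6 fast and 3030 and 3056 in C6 slow arrays. The bright end of the C6SPGFP arrays was thus lower than that of the C6 arrays, and quantile normalization makes these distributions equal by construction. The 445 probe sets with a mean signal of at least 1000 on that scale had median changes of -0.27 (C6SPGFP fast minus C6 fast) and -0.21 (C6SPGFP slow minus C6 slow), against 0.08 and 0.06 over all tested. On it S100a10 stood at 0.04 ± 0.15 in fast and -0.03 ± 0.15 in slow cells, and its mean change of 0.01 did not pass (adjusted p = 0.973).

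Anxa2 moved furthest with the scaling. Its trimmed mean scaled signals were 2951 and 2958 in C6SPGFP fast, 2526 and 2638 in C6SPGFP slow, 3707 and 4326 in C6 fast and 3339 and 3586 in C6 slow cells, so that all 4 C6SPGFP arrays lay below all 4 C6 arrays. On that scale the same held for 7.85% of 6634 probe sets with a mean of at least 8, and for 35.5% of the 445 bright ones. The change was -0.44 ± 0.12 in fast cells, which passed (adjusted p = 0.0318), and -0.42 ± 0.12 in slow cells, which did not (adjusted p = 0.0676). Under quantile normalization the same changes were 0.02 ± 0.08 and -0.09 ± 0.08 (adjusted p = 0.903 and 0.6). S100a4 likewise stood at -0.23 ± 0.13 in fast cells and -0.35 ± 0.13 in slow cells under trimmed mean scaling (adjusted p = 0.296 and 0.164), against 0.23 ± 0.10 and -0.04 ± 0.10 under quantile normalization (adjusted p = 0.186 and 0.884). No direction between C6SPGFP and C6 is therefore given for Anxa2, S100a4 or S100a10. Anxa5 was lower in C6SPGFP on AF051895_at under both scalings without passing, at -0.30 and -0.41 in fast and -0.31 and -0.38 in slow cells, while D42137exon_s_at gave 0.15 and -0.09 in fast and 0.12 and 0.01 in slow cells. Within the sets the Anxa2 change from slow to fast cells stayed positive under trimmed mean scaling, at 0.19 ± 0.12 in C6SPGFP and 0.21 ± 0.12 in C6 (adjusted p = 0.685 and 0.392).

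**Figure D4:**
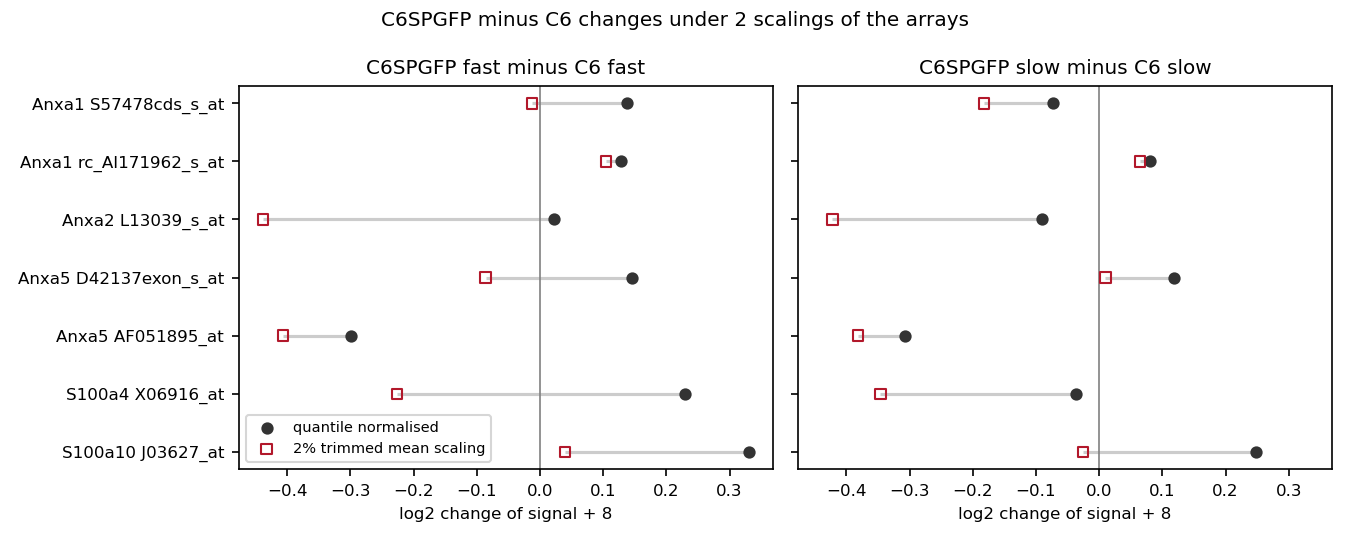
Log2 change of C6SPGFP over C6 in fast (left) and slow (right) cells for the 7 tested probe sets, under quantile normalization (filled circles) and under scaling to the same 2% trimmed mean (open squares); grey lines join the values of a probe set. In fast cells Anxa2 stands at 0.02 and -0.44 and S100a10 at 0.33 and 0.04 under these scalings, while Anxa1 rc_AI171962_s_at stands at 0.13 and 0.10.

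Other genes of both families passed the test between the sets. So did 15.6% of all tested probe sets in fast cells and 6.34% in slow cells. Of 8 other annexins 3 had a tested probe set, and none passed between fast and slow cells in either set. Of all tested probe sets 6.66% passed between fast and slow cells in C6 and 1.39% in C6SPGFP. In fast cells Anxa4 was higher in C6SPGFP, with 448 and 374 against 222 and 234 in C6 (log2 change 0.82 ± 0.19, adjusted p = 0.0203). Anxa6, which carries a doubled annexin core, was lower there on its X86086_g_at probe set, with 418 and 599 in C6SPGFP against 1039.9 and 989.6 in C6 (-1.01 ± 0.19, adjusted p = 0.00822). Its other probe set, X86086_at, gave -0.56 without passing. In slow cells Anxa7 was higher in C6SPGFP, with 96.5 and 102.3 against 21.8 and 45.7 in C6 (1.42 ± 0.31, adjusted p = 0.031). Each of these calls ended in at least 2 runs that left out an array, and that of Anxa7 in 5 of 8.

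Of 13 other S100 genes 3 had a tested probe set. S100b, the S100 protein typical of glia, had 1275 and 1247 in C6SPGFP fast, 1221 and 1230.0 in C6SPGFP slow, 56.8 and 75.0 in C6 fast and 421 and 395 in C6 slow cells on S53527mRNA_s_at. It was the single gene of this list that passed between fast and slow C6 cells (log2 change -2.50 ± 0.16, adjusted p = 5.28e-05), against 6.66% of all tested probe sets. Its other probe set, rc_AI146214_at, did not pass there (-0.19 ± 0.25, adjusted p = 0.768). Between the sets S53527mRNA_s_at was higher in C6SPGFP, by 4.11 ± 0.16 in fast and 1.57 ± 0.16 in slow cells (adjusted p = 2.12e-06 and 0.00132). The probe set rc_AI146214_at of S100b did not pass in either, at 0.59 ± 0.25 and 0.465 ± 0.25 (adjusted p = 0.155 and 0.339). S100a1, an S100 protein of muscle and nerve, had 3 tested probe sets, which differed in the size of the change. The one with the highest mean signal, U26356mRNA_s_at, gave 197 and 227 in C6SPGFP fast against 121 and 131 in C6 fast cells (0.715 ± 0.19, adjusted p = 0.038), a call that ended in 7 of 16 alternatives. In slow cells it gave 166 and 182 in C6SPGFP against 109 and 143 in C6 and did not pass (0.455 ± 0.19, adjusted p = 0.221). The probe set S68809_s_at gave 189 and 164 in C6SPGFP fast against 63.5 and 57.3 in C6 fast cells (1.43 ± 0.18, adjusted p = 0.00114). In slow cells the same probe set gave 137 and 127 in C6SPGFP against 78.9 and 74.4 in C6 (0.72 ± 0.18, adjusted p = 0.0506). The probe set rc_AI228548_g_at of S100a1 passed in both, at 1.31 ± 0.22 in fast and 1.62 ± 0.22 in slow cells, and its call in slow cells ended without C6SPGFP slow replicate 2 (adjusted p = 0.053). S100a8 and S100a9 lay below the filter.

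**Figure D5:**
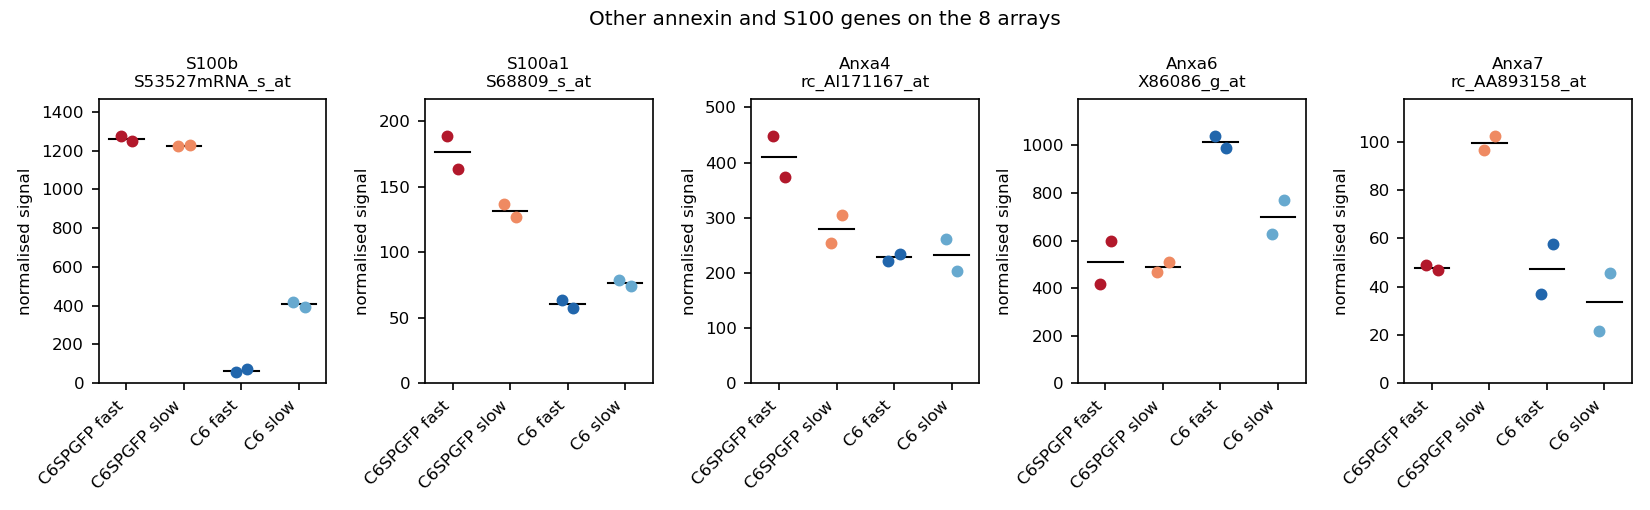
Quantile normalised signal (linear axes from 0) of S100b, S100a1, Anxa4, Anxa6 and Anxa7 on each array, by group; points are arrays and bars are group means of 2. S100b on S53527mRNA_s_at is at 56.8 and 75.0 in C6 fast cells and at least 1221 on all C6SPGFP arrays, and S100a1 lies higher in all C6SPGFP arrays than in all C6 arrays.

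Of 29 listed partners and targets of these proteins 11 had a tested probe set. In C6 fast against slow cells 1 rose, Pla2g4a, the phospholipase A2 that annexin A1 can inhibit, and none fell. Of all tested probe sets 6.66% passed there. In C6SPGFP none of the 11 passed, against 1.39% of all tested probe sets. Plat, the tissue plasminogen activator, whose substrate plasminogen the annexin A2 complex can bind, was higher in C6SPGFP fast cells, with 33.0 and 40.3 against 6.84 and 6.29 in C6 fast cells (1.61 ± 0.28, adjusted p = 0.00525). Pla2g4a was lower there (-4.91 ± 0.31, adjusted p = 2.74e-05). In that comparison 15.6% of all tested probe sets passed. On the mean of fast and slow cells, where 19.9% of all tested probe sets passed, so did Pla2g2a, a secreted phospholipase A2. Pla2g2a was higher in C6SPGFP (0.97 ± 0.23, adjusted p = 0.0209). It was dim, with 14.5 and 15.0 in C6SPGFP fast, 6.34 and 18.65 in C6SPGFP slow, 2.975 and 2.65 in C6 fast and 4.05 and 1.56 in C6 slow cells, and the call ended in 6 of 8 runs without single arrays. In C6SPGFP fast against slow cells Plat stood at 1.12 ± 0.28 without passing (adjusted p = 0.136). The urokinase gene Plau and its receptor gene Plaur passed in none of the comparisons. The anchor Ahnak, the S100A6 partner Cacybp and the formyl peptide receptor genes had no probe set in the annotation used here.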

How the data were processed

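RNA of C6 cells was measured on 8 arrays, grouped by their titles, 2 per group. The authors deposited one linear intensity per probe set and array, between 0 and 14287.9, on 8799 probe sets that include 59 controls. The software behind them: not given in the sources used here. That intensity was quantile normalised between arrays, and log2 of the result plus 8 was used, which draws changes of dim probe sets towards 0. Controls and 2056 probe sets with a mean below 8 were left out. A model of 4 group means was fitted to 6684 probe sets with limma 3.58.1 in R 4.3.3 (lmFit, eBayes with a trend, 4 residual and 4.49 prior degrees of freedom), with two-sided tests adjusted at 5% by Benjamini and Hochberg's method across the whole table. The script was tested on simulated data. Symbols came from the platform's probe table, and 6994 of 7018 were updated through Entrez identifiers in a GRCr8 table.

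Members and lists were chosen with earlier results of these data known. The text names all member probe sets and the list genes that passed, with a few list genes that did not given for comparison and chosen after their values were seen. Counts of genes use the probe set with the highest mean signal. Alternatives were trimmed mean scaling, pseudocounts of 1 and 32, no filter, a minimum of 32, no trend, fits to the compared arrays alone, the replicate number as a block and leaving out each array. Correlations of the deviations of same-numbered arrays were 0.266 between fast and slow C6 cells and 0.104 between fast and slow C6SPGFP cells. Across the sets they were -0.127 to 0.028. Numbers were not taken to pair arrays. The block shares its replicate effect over all groups, so pairing within a set was not tested. The means over both sets and over fast and slow cells were added after the data were seen.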

Additional observations from a re-analysis of the deposited data

Results flagged for a closer look

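The fast minus slow change differed between the sets, by the test of that difference, for 2 genes named above that are not among the 7. For S100b (S53527mRNA_s_at) the difference, C6SPGFP minus C6, was 2.545 on the log2 scale (adjusted p = 0.000433), with changes of 0.04 in C6SPGFP and -2.50 in C6. Its other, dimmer probe set, rc_AI146214_at, did not pass on the difference (0.13, adjusted p = 0.903). For Pla2g4a the difference was -5.121 (adjusted p = 0.000433): it had 11.3 and 5.31 in C6SPGFP fast, 8.38 and 16.01 in C6SPGFP slow, 407 and 549 in C6 fast and 6.39 and 12.2 in C6 slow cells. No probe set of the 7 genes differed in this way. Groups of 2 arrays were too small to look for single arrays far from the rest.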

How the results depend on the processing

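The count of member probe sets that passed stayed at 0 in both fast against slow comparisons, in their difference and in C6SPGFP slow against C6 slow cells under all alternatives run. It became 1 in C6SPGFP fast against C6 fast cells under trimmed mean scaling (Anxa2). On the mean of the C6SPGFP minus C6 changes it was 1 (S100a10), 0 without the trend, and 0 to 1 without single arrays. Under trimmed mean scaling it was again 1, but Anxa2 (-0.43) in place of S100a10 (0.007).

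Under trimmed mean scaling 12 changes that had not passed took the other sign, and of these Anxa2 in fast cells between the sets then passed. The values were 0.002 for Anxa1 rc_AI171962_s_at from slow to fast C6SPGFP cells; -0.016 for Anxa2, -0.096 for Anxa5 D42137exon_s_at and -0.025 for Anxa5 AF051895_at on the difference; and -0.026 for S100a10 in slow cells between the sets, against 0.248. In fast cells between the sets they were -0.013 (Anxa1 S57478cds_s_at), -0.438 (Anxa2), -0.086 (Anxa5 D42137exon_s_at) and -0.226 (S100a4, against 0.229), and on the mean between the sets -0.098, -0.038 and -0.286 for Anxa1 S57478cds_s_at, Anxa5 D42137exon_s_at and S100a4.

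Leaving out single arrays turned the sign of other changes that had not passed. In C6 fast against slow cells Anxa1 rc_AI171962_s_at ranged from -0.217 to 0.105, Anxa1 S57478cds_s_at from -0.068 to 0.307 and Anxa5 AF051895_at from -0.122 to 0.339. In C6SPGFP fast against slow cells Anxa1 rc_AI171962_s_at ranged from -0.313 to 0.296, Anxa5 AF051895_at from -0.093 to 0.327 and S100a10 from -0.115 to 0.046. On the difference Anxa1 rc_AI171962_s_at ranged from -0.257 to 0.352, Anxa5 D42137exon_s_at from -0.09 to 0.145 and Anxa5 AF051895_at from -0.223 to 0.239. In slow cells between the sets Anxa1 S57478cds_s_at ranged from -0.191 to 0.044, Anxa1 rc_AI171962_s_at from -0.081 to 0.241 and S100a4 from -0.133 to 0.061. In fast cells between the sets Anxa2 ranged from -0.021 to 0.065, Anxa1 S57478cds_s_at from -0.049 to 0.325 and Anxa1 rc_AI171962_s_at from -0.177 to 0.432. On the mean from slow to fast Anxa1 rc_AI171962_s_at ranged from -0.184 to 0.12, S100a4 from -0.075 to 0.022 and Anxa5 AF051895_at from -0.003 to 0.228. On the mean between the sets Anxa1 S57478cds_s_at ranged from -0.061 to 0.126 and Anxa1 rc_AI171962_s_at from -0.048 to 0.256. The cause was not tested.

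The replicate number as a block left 0 member probe sets called in the 5 planned comparisons and 1 on the mean between the sets; it moved the counts over all probe sets to 424, 87, 235, 392 and 989, against 445, 93, 255, 424 and 1042. The count over all probe sets ranged over the alternatives from 230 to 447 for C6 fast against slow cells and from 21 to 107 for C6SPGFP. It ranged from 122 to 273 for the difference, from 95 to 451 between the sets in slow cells and from 517 to 1146 in fast cells. For the means it ranged from 167 to 325 against 336 (fast minus slow) and from 862 to 1439 against 1328 (C6SPGFP minus C6). The called changes of S100b and Pla2g4a held under each alternative run, as did those of S100a1 on S68809_s_at. Calls of S100a1 on U26356mRNA_s_at in fast cells between the sets ended in 7 alternatives (adjusted p from 0.0593 to 0.206). The wide intervals of the rc_AI171962_s_at and AF051895_at probe sets limit what can be said of small changes of Anxa1 and Anxa5.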

Other observations

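S100a4, S100a6 and S100a1 lie in a run of S100 genes on rat chromosome 2 in the RefSeq annotation, with 1 annotated gene between S100a4 and S100a6 and 7 between S100a4 and S100a1, while S100a10 lies 91 annotated genes from S100a4. Of these, S100a1 was higher in C6SPGFP than in C6 cells on the mean of fast and slow cells, by log2 changes of 0.585 ± 0.135 (SE) on U26356mRNA_s_at (adjusted p = 0.0173, a call lost in 2 alternatives), 1.08 ± 0.13 on S68809_s_at (adjusted p = 0.000741) and 1.46 ± 0.16 on rc_AI228548_g_at (adjusted p = 0.00046). S100a4 was at 0.10 ± 0.07 in that comparison and did not pass (adjusted p = 0.411), and it stood at -0.29 under trimmed mean scaling. Of all tested probe sets 19.9% passed in that comparison.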
